A study of Mus musculus with 30 samples.

Results

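The glucocorticoid receptor and a set of its target genes were examined in the eye and hypothalamus of mice with and without a functional Per3 gene. All probes that the array files name as Nr3c1, Nr3c2, Fkbp5, Sgk1, Tsc22d3, Hsd11b1, Zbtb16, Pdk4 or Cdkn1a were taken, which gave 18 of 41174 probes for 8 of the 9 genes. Zbtb16 was not analysed here. Corticosterone, the main glucocorticoid of the mouse, enters cells and binds Nr3c1 (glucocorticoid receptor) or Nr3c2 (mineralocorticoid receptor), which then move to the nucleus and act at glucocorticoid response elements. Hsd11b1 regenerates active steroid from its inactive form inside the cell, and Fkbp5 is a co-chaperone that lowers the affinity of the receptor and is itself induced by it, a short negative feedback loop. Sgk1 (a kinase that acts on ion channels), Tsc22d3 (also called GILZ, an anti-inflammatory leucine zipper protein), Pdk4 (a kinase that restrains pyruvate oxidation) and Cdkn1a (p21, an inhibitor of the cell cycle) are widely used readouts of glucocorticoid action.

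RNA came from a block around the optic chiasm, which includes the suprachiasmatic nuclei, of 8 wild-type (WT) and 8 Per3-/- mice, and from whole eyes, of which 7 WT and 7 Per3-/- mice gave one each. The mice were adult males, WT and Per3-/- littermates on a C57Bl/6J background, and Per3 had been disrupted in the germline with a PGK-NEO cassette. All had lived through 17 cycles of 3.5 h light and 3.5 h dark and were killed in the light part of the last one. There was no group at another time of day and no steroid treatment, and no hormone level was analysed here. Eye and hypothalamus arrays were taken as those of 1 mouse where genotype and replicate number in the sample titles were the same. No other sign of the mouse was used. By this match each mouse had at most 1 array per tissue, and 14 mice had both. A level below is log2 of the probe's background-subtracted intensity relative to the 75th percentile of its array, so that 0 is the 75th percentile, and levels were compared between samples of 1 probe and not between probes.

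For each tissue there were 4 slides, and every slide carried both genotypes. The same mice lay on the same slide number in both tissues, so that slide and set of mice cannot be told apart, and eye and hypothalamus arrays were scanned at different times, so that tissue and array run cannot be told apart either. Between 67.9% and 80.7% of probes were well above background on an array, and none of the 18 probes was saturated. The 1 probe of Per3, the targeted gene, was lower in Per3-/- mice by 0.51 ± 0.09 (SE) in the hypothalamus (adjusted p = 0.067), where WT mice ranged from -3.79 to -3.28 and Per3-/- mice from -4.21 to -3.59. Where this probe lies relative to the cassette was not checked. In the eye the difference was -0.45 ± 0.23 (adjusted p = 1.0), with WT mice between -3.55 and -2.57 and Per3-/- mice between -4.12 and -2.90. All 5 lens genes were higher in the WT eye and 7 of 8 hypothalamic genes higher in the WT hypothalamus, and Six6, the exception, was higher in the eye (mean level -1.19 against -4.74). The lists were not absent from the other tissue. Cryaa and Bfsp1 were well above background on all 16 hypothalamic arrays and Crygs on 12, and Oxt, Hcrt, Agrp, Gal and Six6 on all 14 eye arrays, while Mip was so on no hypothalamic array and Pmch and Sim1 on no eye array. The hypothalamus of Per3-/- mouse 7 stood apart in several of the genes below and its eye in Sgk1, and relations that rest on this mouse are given with and without it.

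The probes below are those on which results turn, and the promoters are shown for their sequence only. Fkbp5 has 3 probes, whose 60 bases start at base 2607, 1892 and 314 of the transcript, on the minus strand of mm9 at chr17:28536878-28536937, chr17:28537593-28537652 and chr17:28574995-28575054. The first is the brightest probe of the gene, and the last lies far from it in the genome. For the first 2, the first 30 bases are shown.
Fkbp5 probe at base 2607: ggcattgaattagggcaaatcttaaatagt
Fkbp5 probe at base 1892: cacactgcagaaaccgttgataaaacaaac
Fkbp5 probe at base 314: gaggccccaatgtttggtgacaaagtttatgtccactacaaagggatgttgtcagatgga

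Nr3c2 has 3 probes within a short stretch of 1 transcript, on the plus strand of mm9 at chr8:79432389-79432448 (base 253), chr8:79432928-79432987 (base 792) and chr8:79433526-79433585 (base 1390). They are shown because they differ between the tissues in different directions.
Nr3c2 probe at base 253: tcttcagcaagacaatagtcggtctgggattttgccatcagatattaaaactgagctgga
Nr3c2 probe at base 792: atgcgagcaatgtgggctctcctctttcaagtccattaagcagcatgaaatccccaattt
Nr3c2 probe at base 1390: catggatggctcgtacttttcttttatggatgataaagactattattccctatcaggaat

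The RefSeq promoter table (GRCm38.p6; 300 bases, from 250 before to 50 after a start) holds 15 promoters of 7 of the genes. The classical glucocorticoid response element is a palindrome of 2 arms of 6 bases, AGAACA and TGTTCT, with 3 bases of any kind between them. The exact palindrome was in 3 of the 32851 promoters (0.00913%), and 1 of these 3 was a promoter of Sgk1, at chr10:21993640-21993939 on the plus strand, where it ran from position -189 to -175 relative to the start. Single arms on either strand were in 4 of the 15 promoters, all of Sgk1 or Tsc22d3, and in 19.0% of all promoters. Of the 15 promoters 6 were of Sgk1, so that shares of the 15 are not shares of separate genes. The E-box CACGTG, the element that clock activators bind, was in 2 of the 15 (Sgk1 and Fkbp5, the latter at chr17:28486100-28486399 on the minus strand) and in 7.15% of all promoters. In the sequences below capitals mark arms, the palindrome with its spacer and the E-box, and in Sgk1 the E-box near the 5′ end overlaps a single arm. The Sgk1 promoter shown is the one with the palindrome, and the other promoters of Sgk1 held neither palindrome nor E-box. These are matches of letters, and nothing was measured at these promoters.
Sgk1 promoter: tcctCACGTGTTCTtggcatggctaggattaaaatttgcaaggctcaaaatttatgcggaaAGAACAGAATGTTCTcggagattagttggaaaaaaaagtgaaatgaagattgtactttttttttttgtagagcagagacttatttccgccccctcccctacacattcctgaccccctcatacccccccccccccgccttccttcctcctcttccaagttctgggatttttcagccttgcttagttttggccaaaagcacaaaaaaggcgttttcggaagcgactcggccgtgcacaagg
Fkbp5 promoter: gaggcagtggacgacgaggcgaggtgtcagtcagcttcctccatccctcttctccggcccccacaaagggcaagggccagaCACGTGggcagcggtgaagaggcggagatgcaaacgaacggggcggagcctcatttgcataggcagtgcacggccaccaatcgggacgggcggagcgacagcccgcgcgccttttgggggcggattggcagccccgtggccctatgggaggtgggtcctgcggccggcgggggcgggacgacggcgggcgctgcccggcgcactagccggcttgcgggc

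Genotype left none of these genes with a change that passed the test. At an adjusted p under 0.05 (limma, Benjamini-Hochberg over all 41174 probes), 0 of the 18 probes were called in the hypothalamus, where 0.0413% of all probes were called, and 0 of 18 in the eye, where the share was 0.0194%. At an unadjusted p under 0.05 the 18 probes gave 0 in each tissue, against 2.82% and 1.8% of all probes, and the methods' unpaired test after the same adjustment called none of the 8 brightest probes. For the difference of the genotype effect between tissues 0 of 18 were called at an adjusted p under 0.05 (0.00486% of all probes) and 0 of 18 at an unadjusted p under 0.05 (2.21%). The p-values are two-sided and measure the spread between mice. The plot of levels by mouse shows the overlap of the genotypes in all 8 genes.

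**Figure D1:**
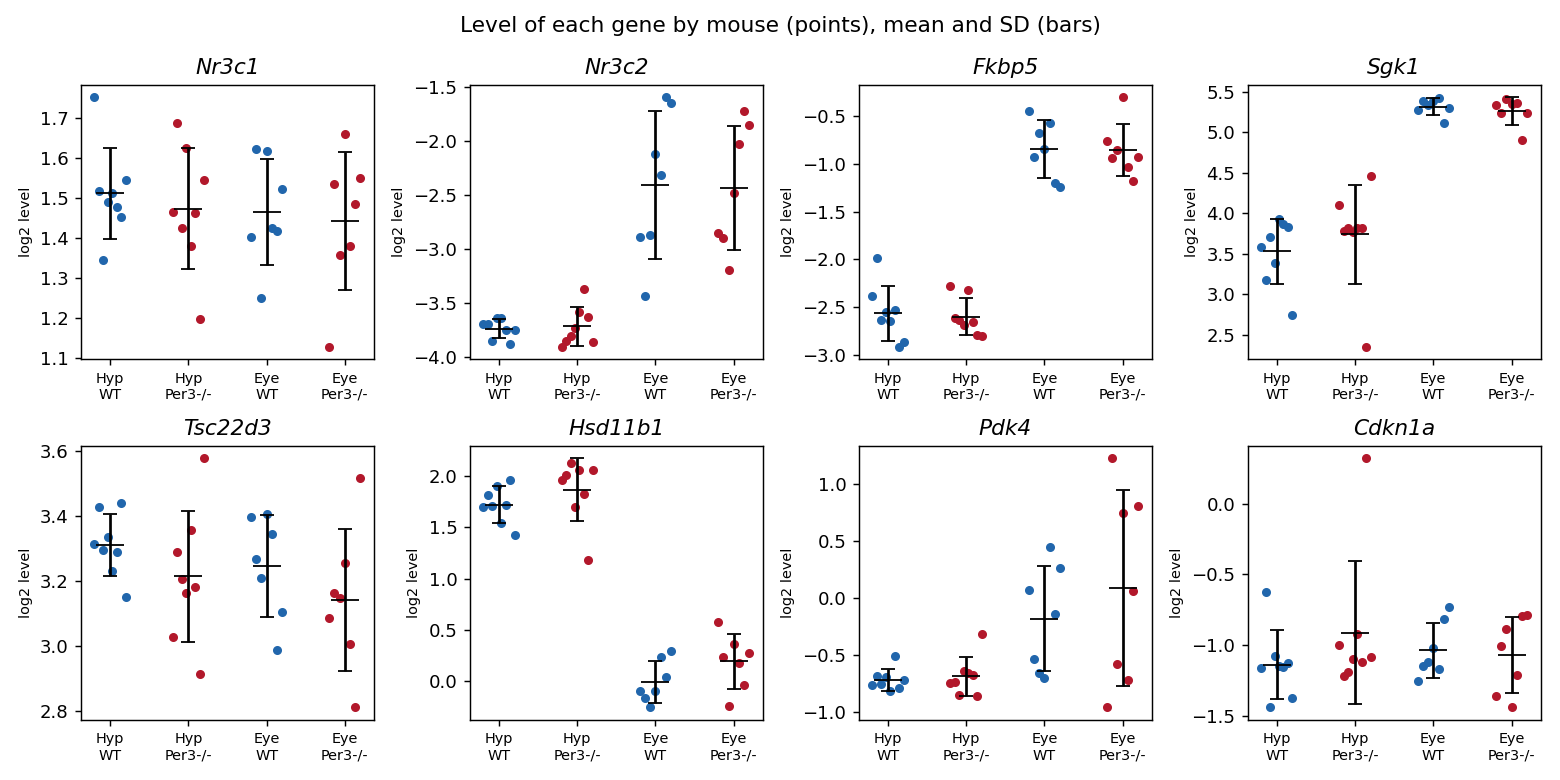
Log2 level (y axis) of the brightest probe of each gene in each mouse, by tissue and genotype (WT blue, Per3-/- red), with horizontal bars for the mean and error bars for the SD. The genotypes overlap in every panel, while Fkbp5, Sgk1 and Hsd11b1 separate the tissues. Per3-/- mouse 7 gives the lowest Sgk1 and Hsd11b1 point and the highest Cdkn1a point of the hypothalamus.

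Among the receptors, Nr3c1 showed no tissue difference past the test with its brightest probe (base 5849). In the hypothalamus this probe ranged from 1.35 to 1.75 in WT mice (median 1.501) and from 1.20 to 1.69 in Per3-/- mice (median 1.46). In the eye the ranges were 1.25 to 1.62 (median 1.42) and 1.13 to 1.66 (median 1.48). The groups overlapped throughout, and the WT difference between tissues was -0.05 ± 0.08 (SE, adjusted p = 0.59). A probe at base 2285 of the same transcript was 6.03-fold lower in the WT eye (log2 difference -2.59 ± 0.09, adjusted p = 1.59e-20), a probe at base 3597 was 1.72-fold lower (-0.78 ± 0.09, adjusted p = 2.24e-09), and that at base 2478 differed by 0.03 ± 0.10 (adjusted p = 0.77). Of the 4 probes of the receptor, all well above background on all arrays, 2 were thus lower in the eye and 2 did not pass. That at base 2478 differed by -0.53 with quantile normalization (adjusted p = 0.00042).

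Nr3c2, which binds corticosterone with higher affinity than Nr3c1, gave opposite tissue differences at neighbouring sites of its transcript. The brightest probe (base 792) was 2.51-fold higher in the WT eye (1.33 ± 0.22, adjusted p = 2.59e-06), whereas the probe at base 253 was lower there by 2.66 ± 0.32 (adjusted p = 1.03e-08). The latter was well above background on all 16 hypothalamic arrays but on only 2 of 7 WT and 1 of 7 Per3-/- eye arrays. Its difference was -1.06 with normexp and -3.28 with quantile normalization, so that its direction held and its size depends on how background was handled. The probe at base 1390 was dim in both tissues (well above background on 9 hypothalamic and 3 eye arrays). In the hypothalamus the probe at base 792 lay between -3.88 and -3.64 in WT mice and between -3.91 and -3.37 in Per3-/- mice. In the eye it spread from -3.44 to -1.60 and from -3.20 to -1.73, and its slide means there were -2.87, -3.10, -2.24 and -1.71 for slides 1 to 4. Eye levels thus differed between slides, and slide and set of mice cannot be told apart.

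Hsd11b1 (mm9 chr1:195048169-195048228, minus strand) was higher in the hypothalamus. Its level was 1.42 to 1.97 in WT (median 1.71) and 1.18 to 2.13 in Per3-/- hypothalamus (median 1.99), and -0.26 to 0.29 (median -0.10) and -0.24 to 0.58 (median 0.23) in the eye. The lowest hypothalamic value exceeded the highest eye value, and the WT difference was 3.32-fold (eye minus hypothalamus -1.73 ± 0.12, adjusted p = 1.04e-13). Per3-/- mice were higher by 0.14 ± 0.12 in the hypothalamus (exact permutation p = 0.28) and by 0.20 ± 0.13 in the eye (exact permutation p = 0.14), with limma adjusted p = 0.99 and 1.0. Without Per3-/- mouse 7 the hypothalamic difference was 0.24 (limma, unadjusted p = 0.012, adjusted p = 1.0).

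Fkbp5 was higher in the eye with 2 of its 3 probes. The brightest (base 2607) ranged from -2.91 to -1.99 in WT (median -2.59) and from -2.80 to -2.28 in Per3-/- hypothalamus (median -2.65). In the eye it ranged from -1.24 to -0.45 (median -0.84) and from -1.18 to -0.30 (median -0.93), so that the tissues did not overlap. In WT mice the eye was 3.31-fold higher with this probe (1.73 ± 0.13, adjusted p = 6.01e-13) and 2.49-fold higher with that at base 1892 (1.32 ± 0.14, adjusted p = 5.28e-10), but lower by 0.33 ± 0.12 with that at base 314 (adjusted p = 0.013; 0.12 with normexp background correction). The genotype difference of the brightest probe was -0.03 ± 0.12 in the hypothalamus and -0.01 ± 0.15 in the eye.

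Sgk1 was 3.44-fold higher in the WT eye (1.78 ± 0.19, adjusted p = 1.14e-09). Its brightest probe (base 2136, mm9 chr10:21719390-21719449, plus strand) ranged from 5.12 to 5.43 in WT (median 5.34) and from 4.91 to 5.41 in Per3-/- eyes (median 5.34). In the hypothalamus it ranged from 2.75 to 3.93 (median 3.65) and from 2.36 to 4.46 (median 3.81), a wider spread, with Per3-/- mouse 7 the lowest. The genotype difference in the hypothalamus was 0.21 ± 0.25 (exact permutation p = 0.44), and 0.41 without that mouse (limma, unadjusted p = 0.031, adjusted p = 1.0). The other Sgk1 probe, on a separate cDNA, was well above background on 0 hypothalamic and 4 eye arrays.

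Tsc22d3 did not separate the tissues with its brightest probe (base 1763, mm9 chrX:137074393-137074452, minus strand). It ranged from 3.15 to 3.44 in WT (median 3.30) and from 2.91 to 3.58 in Per3-/- hypothalamus (median 3.19), and from 2.99 to 3.41 (median 3.27) and 2.81 to 3.52 (median 3.15) in the eye. Tissues overlapped and differed by -0.06 ± 0.09 (adjusted p = 0.52). The probe at base 1205 was 1.74-fold lower in the WT eye (-0.80 ± 0.10, adjusted p = 1.66e-08), and that at base 1699 was higher by 0.24 ± 0.08 (adjusted p = 0.0082; 0.082 with normexp background correction).

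Pdk4 (mm9 chr6:5433441-5433500, minus strand) spread more between mice in the eye (SD 0.46 in WT and 0.86 in Per3-/- mice) than in the hypothalamus (SD 0.095 and 0.17). It ranged from -0.81 to -0.51 in WT (median -0.74) and from -0.86 to -0.31 in Per3-/- hypothalamus (median -0.70), against -0.70 to 0.45 (median -0.14) and -0.96 to 1.23 (median 0.07) in the eye. The WT eye was higher by 0.54 ± 0.23 (adjusted p = 0.040), a call that was lost with quantile normalization (adjusted p = 0.088) and without WT mouse 1, 6, 7 or 8. The mean level of 6 skeletal muscle genes ranged from 3.81 to 5.11 in WT and from 3.94 to 5.14 in Per3-/- eyes, and across the 14 eyes it correlated with Pdk4 (r = 0.79, permutation p = 0.00029; rho = 0.78, permutation p = 0.00050). Adjusted over 256 relations between 16 lists and 8 genes in both tissues, these were 0.066 and 0.064, r was 0.83 with slide means removed and 0.73 without the 2 eyes farthest from the median of the muscle genes, and the part of muscle RNA in the Pdk4 values was not tested. Muscle was not the only list to go with Pdk4. Without Per3-/- mouse 7, r was 0.79 for muscle and 0.71 for adipose genes (permutation p = 0.0042, adjusted p = 0.22). It was 0.64 for glucocorticoid response genes (permutation p = 0.039, adjusted p = 0.45) and 0.59 for astrocyte genes (permutation p = 0.025, adjusted p = 0.39). From all 14 eyes without the 2 farthest from a list's median, r was 0.51 for adipose and for astrocyte genes. For glucocorticoid response genes it was 0.33. The part of these cell types was not tested either.

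Cdkn1a (mm9 chr17:29237377-29237436, plus strand) overlapped between tissues, from -1.44 to -0.62 in WT (median -1.15) and from -1.22 to 0.32 in Per3-/- hypothalamus (median -1.09), and from -1.25 to -0.73 (median -1.12) and -1.44 to -0.79 (median -1.01) in the eye. The value of 0.32 is that of Per3-/- mouse 7, and the next highest in its group was -0.92. The tissue difference in WT was 0.11 ± 0.16 (adjusted p = 0.57).

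In all, 12 of the 18 probes differed between WT eye and hypothalamus, 6 higher in the eye and 6 lower, where 75.6% of all probes were called (42.1% higher and 33.6% lower), a share near that of the members. The median difference of all probes was 0.16 with the 75th percentile and -0.07 with quantile normalization. In bulk samples fewer cells of a type and less RNA per cell cannot be told apart.

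**Figure D2:**
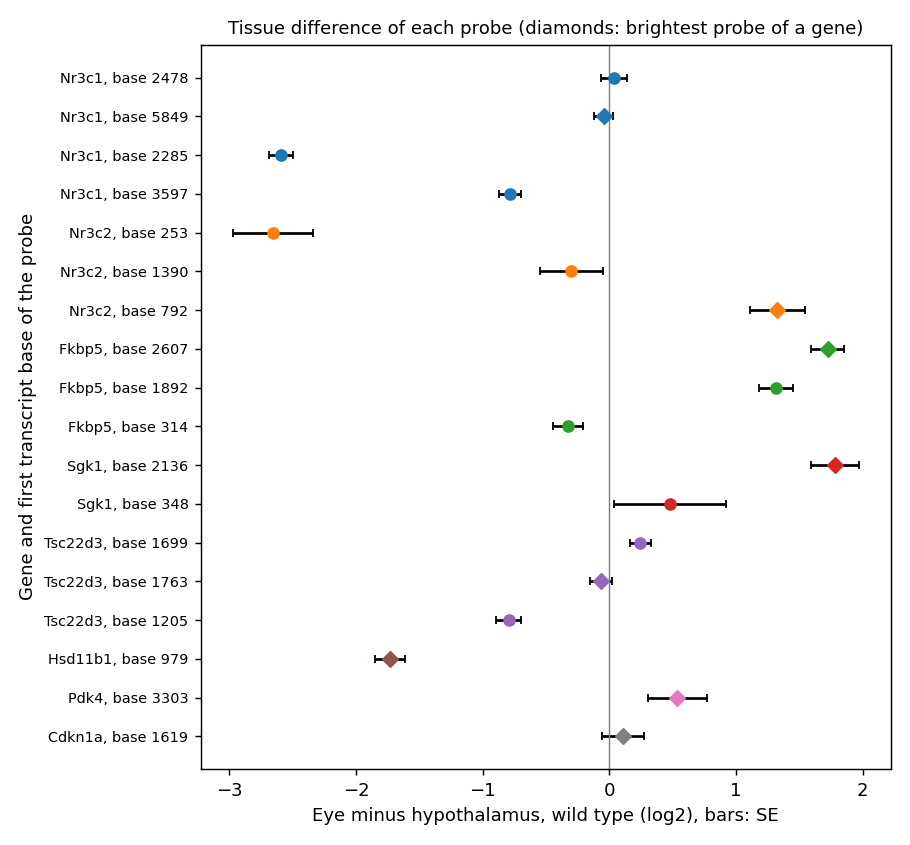
Log2 difference between WT eye and WT hypothalamus (x axis, bars are SE of the fit) for each of the 18 probes (y axis, gene and first base of the probe in its transcript). Probes of 1 gene lie on both sides of 0 in Fkbp5, Nr3c2 and Tsc22d3, and Nr3c1 ranges from -2.59 to 0.03.

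Whether a mouse with a high level in the eye also had a high level in the hypothalamus was asked over the 14 mice with both arrays, on levels centred on the mean of each genotype. The brightest Fkbp5 probe had r = 0.94 (permutation p = 2.0e-05) and rho = 0.87 (permutation p = 0.00032). By r it ranked second of 41093 probes, below Xlr3c (r = 0.95), and 15 probes had r above 0.9. The median over all probes was 0.07. Adjusted over all probes its p was 0.14, and no probe passed (0% of 41093, with 8% at an unadjusted p under 0.05), the smallest adjusted p being 0.10.

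The same mice stood at both ends of the Fkbp5 range. Per3-/- mouse 5 and WT mouse 1 had the highest levels in the eye (-0.30 and -0.45) and in the hypothalamus of these 14 mice (-2.32 and -2.39). WT mice 7 and 8 had the lowest in the eye (-1.20 and -1.24) and in the hypothalamus (-2.91 and -2.87). The correlation was 0.91 without the 2 mice farthest from the median of the hypothalamic level, and 0.92 to 0.96 without any 1 mouse. With slide means removed it was 0.88 (permutation within slides, p = 0.0029). The other 2 Fkbp5 probes did not share the relation. That at base 1892 had r = -0.09 (permutation p = 0.77) and rho = -0.02 (permutation p = 0.94), and that at base 314 had r = 0.11 (permutation p = 0.73) and rho = 0.09 (permutation p = 0.77).

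**Figure D3:**
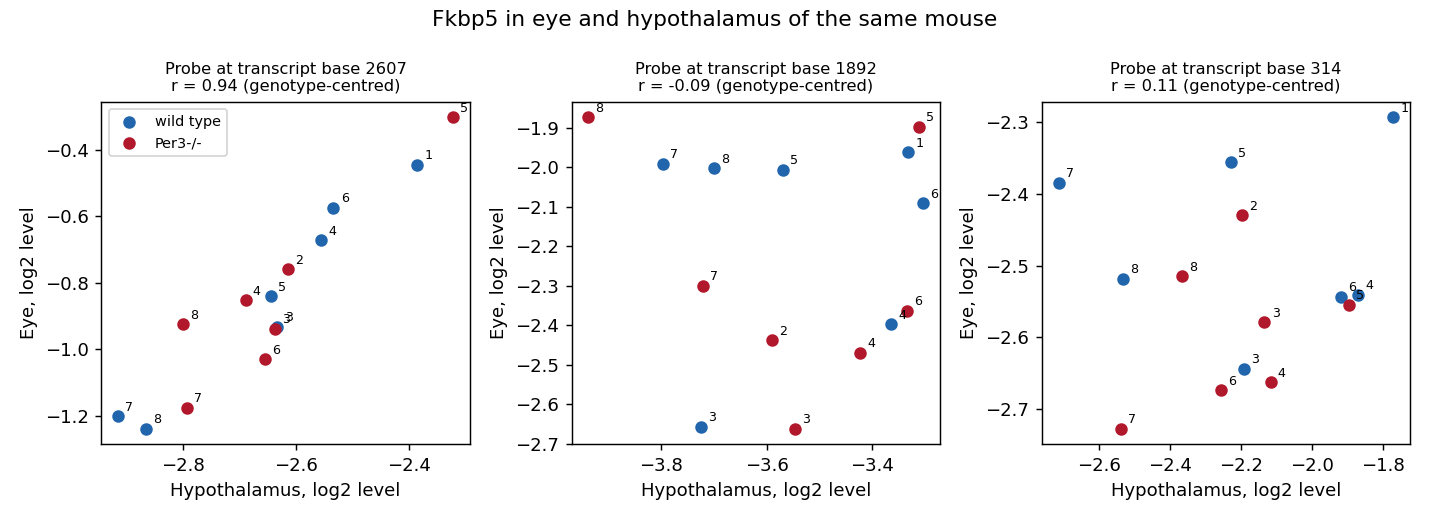
Log2 level of the 3 Fkbp5 probes in the hypothalamus (x axis) and eye (y axis) of the same 14 mice, with replicate numbers beside the points (WT blue, Per3-/- red). The mice fall along a line with the probe at base 2607 (r = 0.94) and show no such line with those at base 1892 (r = -0.09) or base 314 (r = 0.11).

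The 3 Fkbp5 probes varied together in the hypothalamus, while no pair passed in the eye. In the hypothalamus the brightest correlated with that at base 1892 (r = 0.88, permutation p = 2.0e-05; rho = 0.88) and with that at base 314 (r = 0.85, permutation p = 1.0e-05; rho = 0.91) (adjusted p = 0.00021 and 0.00016 over the 32 pairs of probes of 1 gene in the 2 tissues). In the eye the same pairs had r = 0.20 (permutation p = 0.51, rho = 0.13) and r = 0.33 (permutation p = 0.28, rho = 0.32). The difference between these tissues was not tested. The brightest 2 Tsc22d3 probes, by contrast, had r = 0.97 in the eye, against 0.91 across hypothalami.

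The other genes had weaker relations between tissues. Tsc22d3 had r = 0.63 (permutation p = 0.038, adjusted p = 0.59) and rho = 0.35 (permutation p = 0.24) with its brightest probe. This r fell to -0.08 without the 2 mice farthest from the median, so that with this probe it rests on those mice. It was 0.43 without Per3-/- mouse 7, 0.37 without Per3-/- mouse 8 and 0.87 without WT mouse 7. The probe at base 1205 had r = 0.62 (permutation p = 0.027, adjusted p = 0.56; rho = 0.52), and 0.41 without the 2 farthest mice. That at base 1699 had r = 0.53 (permutation p = 0.10; rho = 0.09), and -0.42 without the 2 farthest mice. Sgk1 had r = 0.58 (permutation p = 0.085) and rho = 0.27 (permutation p = 0.34), with r = -0.14 without the 2 farthest mice and -0.08 without Per3-/- mouse 7. Nr3c1 had r = -0.52 (permutation p = 0.084; rho = -0.52, permutation p = 0.078) with its brightest probe, but r = 0.58 (permutation p = 0.021, adjusted p = 0.53; rho = 0.58, permutation p = 0.033) with that at base 3597. Hsd11b1 (r = 0.32), Cdkn1a (r = 0.29), Pdk4 (r = 0.23) and Nr3c2 (r = 0.17) had permutation p between 0.33 and 0.57. Without Per3-/- mouse 7, Cdkn1a had r = -0.21 and Hsd11b1 r = 0.13, and without Per3-/- mouse 8 Pdk4 had r = -0.03.

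Within a tissue, the 28 pairs of genes were correlated across mice, which gave 56 relations over both tissues, and 1 passed after adjustment over all 56. At an unadjusted permutation p under 0.05 there were 5 of 28 pairs in the hypothalamus and 3 of 28 in the eye. For scale, limma with Fkbp5 as a term put 12.2% (hypothalamus) and 14.9% (eye) of the whole array under an unadjusted p of 0.05. That is another test with 1 gene, and no share for pairs of arbitrary genes is given here. Whether the pair counts differ from those of other genes was therefore not tested. No difference between the 2 tissues in the correlations of pairs was tested.

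**Figure D4:**
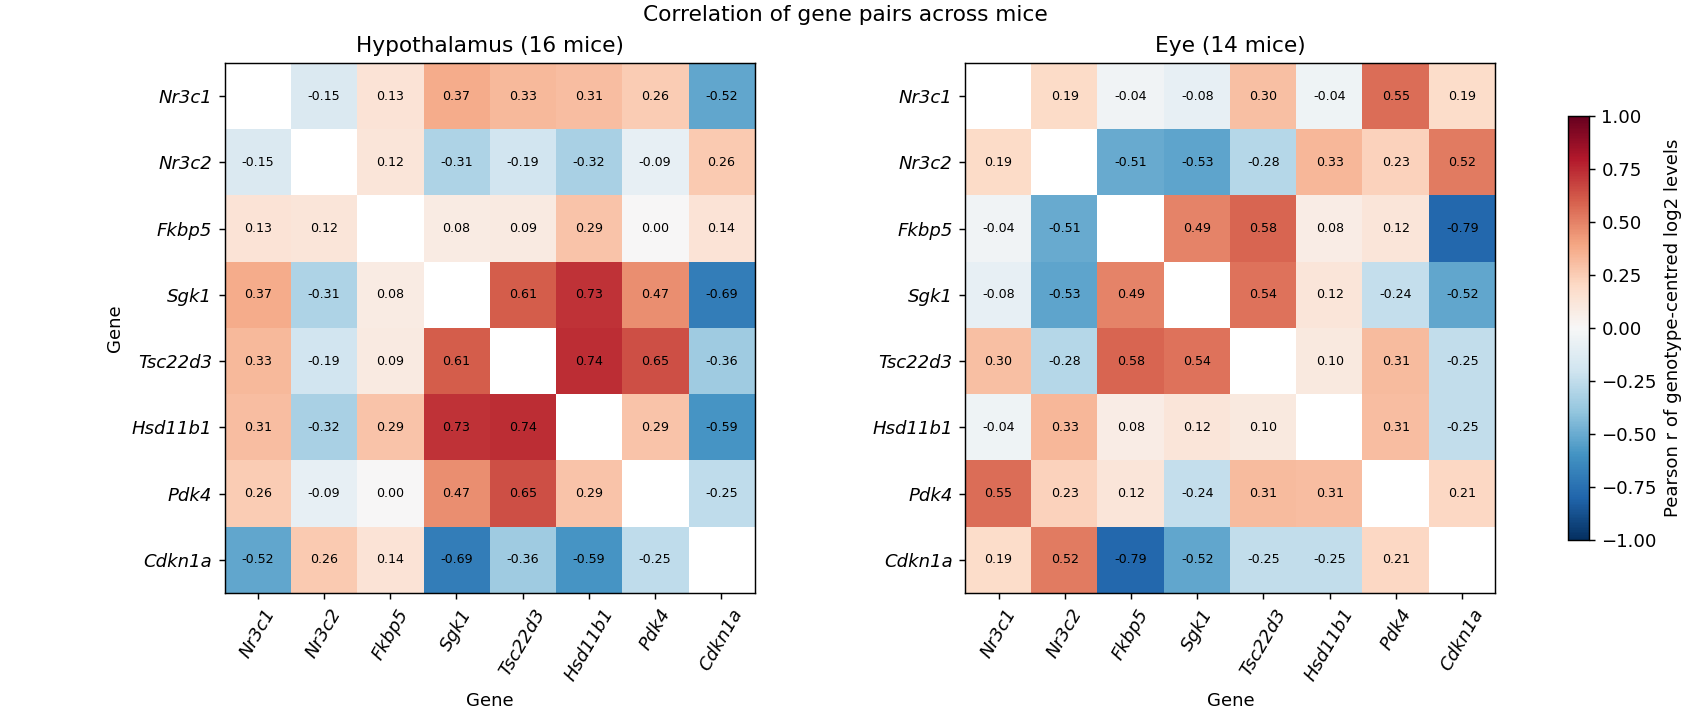
Pearson r of genotype-centred log2 levels for every pair of genes (axes) across mice, in the hypothalamus (left, 16 mice) and eye (right, 14 mice), red for positive and blue for negative. The strongest cells are Tsc22d3 with Hsd11b1 in the hypothalamus (0.74) and Fkbp5 with Cdkn1a in the eye (-0.79).

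In the hypothalamus Tsc22d3 and Hsd11b1 had r = 0.74 (permutation p = 0.0049, adjusted p = 0.14) and rho = 0.76 (permutation p = 0.0017, adjusted p = 0.096). The value was 0.64 without the 2 mice farthest from the median, 0.80 with slide means removed and 0.59 without Per3-/- mouse 7, and it ranged from 0.59 to 0.83 without any 1 mouse. With the mean of all probes of each gene it passed (r = 0.79, adjusted p = 0.031), as it did without Per3-/- mouse 1 (adjusted p = 0.015) or 8 (adjusted p = 0.032).

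Sgk1 and Hsd11b1 had r = 0.73 (permutation p = 0.017, adjusted p = 0.32) but rho = 0.33 (permutation p = 0.22), and r was -0.01 without the 2 farthest mice and 0.33 without Per3-/- mouse 7. Over 6 other settings r was 0.53 to 0.74, with adjusted permutation p from 0.047 to 0.45. Sgk1 and Cdkn1a had r = -0.69 (permutation p = 0.049) and rho = -0.18 (permutation p = 0.49), with r = -0.04 without that mouse. Sgk1 and Tsc22d3 had r = 0.61 (permutation p = 0.035, rho = 0.16), with 0.36 without it. These 3 relations rest on Per3-/- mouse 7. Tsc22d3 and Pdk4 had r = 0.65 (permutation p = 0.027) and rho = 0.40 (permutation p = 0.16), with r = 0.30 without Per3-/- mouse 8, the highest in both genes. Fkbp5 had r between 0.00 and 0.29 with the 7 other genes of this tissue.

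The mean of 8 immediate early genes, which rise quickly with neuronal activity and handling, was 0.62 in the hypothalamus of Per3-/- mouse 7 and -1.19 to -0.44 in the 15 other mice. The same hypothalamus lay outside the range of all others in 5 of the 16 lists, among them oligodendrocyte genes (4.11, others 4.24 to 4.69), hypothalamic genes (1.36, others 1.46 to 2.10) and endothelial genes (0.066, others -0.23 to 0.024). Receptor chaperones and cofactors were also among them (3.19, others 2.82 to 3.15). In every list 1 mouse is the lowest and 1 the highest, and no such count was made for the other mice. Over the 16 mice the immediate early mean correlated with Hsd11b1 (r = -0.83, permutation p = 0.0040; rho = -0.63, permutation p = 0.015) and Sgk1 (r = -0.78, permutation p = 0.010; rho = -0.43, permutation p = 0.092), with adjusted p = 0.16 and 0.22 over the 256 relations. Without Per3-/- mouse 7, an alternative chosen after seeing the data, r was -0.52 for Hsd11b1 (permutation p = 0.055; rho = -0.34) and -0.40 for Sgk1 (permutation p = 0.15; rho = -0.21), so that both rest largely on it, and without the 2 mice farthest from the median of the immediate early mean r was -0.39 and -0.16. Cdkn1a had r = 0.73 (permutation p = 0.064; rho = 0.39) with all mice and -0.03 without that mouse. With the oligodendrocyte mean Cdkn1a had r = -0.67 (permutation p = 0.011, adjusted p = 0.22; rho = -0.29, permutation p = 0.27), and -0.37 without that mouse (permutation p = 0.21).

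In the eye the sign for Sgk1 was the opposite. There the immediate early mean correlated with Sgk1 at r = 0.83 (permutation p = 0.0032, adjusted p = 0.16) and rho = 0.71 (permutation p = 0.0080, adjusted p = 0.34), with 0.77 with slide means removed, 0.79 without the 2 farthest mice and 0.62 without Per3-/- mouse 7 (permutation p = 0.028). That mouse stood apart in the eye too, with the lowest immediate early mean (-1.12, others -0.85 to -0.52), where its hypothalamus had the highest. Its eye also had the lowest Sgk1 level (4.91) and lay outside the range of all others in 4 of the 16 lists. Among these were the glucocorticoid response genes (1.89, others 1.91 to 2.11), and here too the other mice were not counted. Hsd11b1 had r = 0.24 in the eye (permutation p = 0.45; rho = 0.24) and 0.03 without that mouse. The difference between tissues was not tested, nor was the part of activity or of cell types in the values of these genes.

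In the eye Fkbp5 fell as Cdkn1a rose (r = -0.79, permutation p = 0.00052, adjusted p = 0.029; rho = -0.71, permutation p = 0.0057, adjusted p = 0.16). Without the 2 mice farthest from the median r was -0.67. With slide means removed it was -0.43 (adjusted p = 0.59), so that the relation did not hold within slides, and in 10 of 14 refits without 1 mouse the adjusted p was 0.05 or more, without WT mouse 1, 4, 5, 6, 7 or 8 or Per3-/- mouse 2, 3, 5 or 7 (r between -0.85 and -0.71 over all refits). The slide means of Cdkn1a in the eye were -1.31, -1.04, -1.21 and -0.78, and those of Fkbp5 were -0.60, -0.85, -0.69 and -1.14. Fkbp5 and Tsc22d3 had r = 0.58 (permutation p = 0.037, adjusted p = 0.34) and rho = 0.63 (permutation p = 0.025), with 0.53 within slides. Nr3c2 and Sgk1 had r = -0.53 (permutation p = 0.044, rho = -0.35), with -0.25 within slides.

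**Figure D5:**
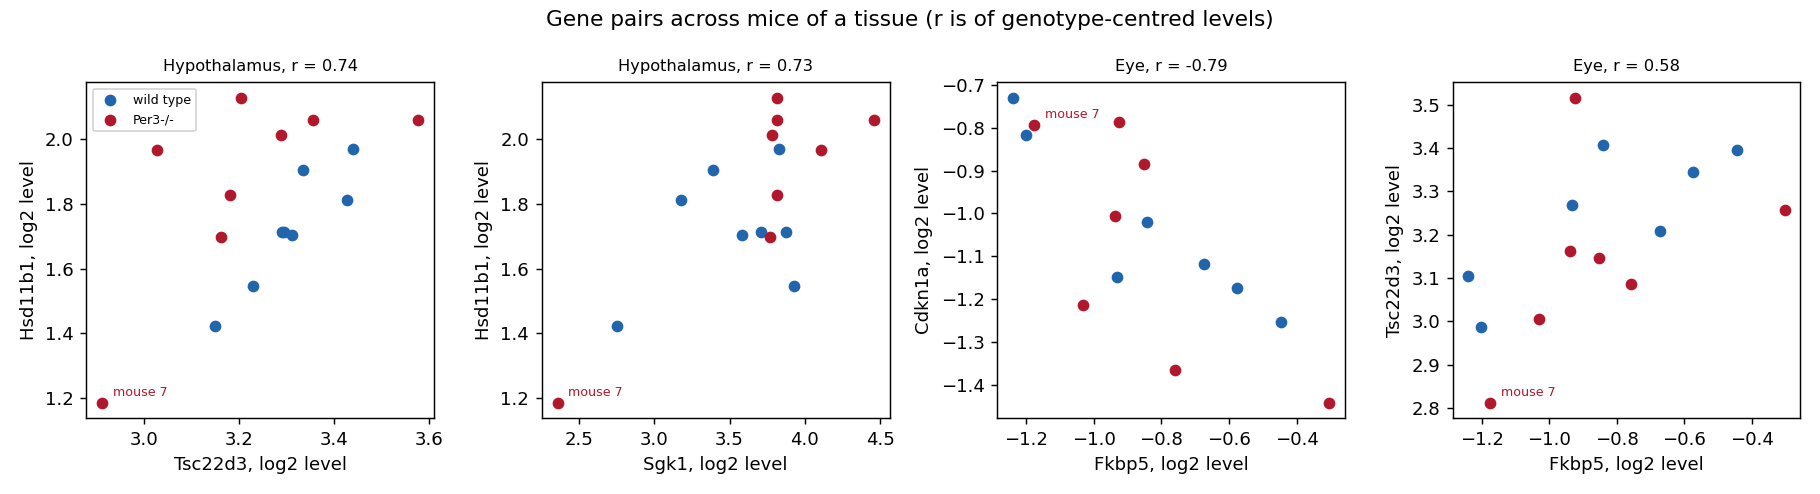
Log2 levels of gene pairs in each mouse (axes name the genes; WT blue, Per3-/- red) in the hypothalamus (left 2 panels) and eye (right 2 panels), with Per3-/- mouse 7 marked. That mouse sits at the lower left of both hypothalamic panels, whose r falls from 0.74 to 0.59 and from 0.73 to 0.33 without it.

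Genes that followed Fkbp5 were sought among all 41171 other probes with the brightest Fkbp5 probe as a term beside genotype. In the hypothalamus 1 probe passed (0.00243%), that of Dsp (desmoplakin, a protein of cell junctions), named after its value was seen, with a slope of 1.85 ± 0.23 log2 units per unit of Fkbp5 (adjusted p = 0.045). In the eye none passed (0%), with 14.9% of probes at an unadjusted p under 0.05 against 12.2% in the hypothalamus. With slide as a block, with quantile normalization or with only probes well above background none passed in either. Without any 1 mouse the hypothalamic count ranged from 0 to 8, so that the call of Dsp was not stable. Among probes that no array of the tissue placed near background, the highest r with Fkbp5 in the hypothalamus were those of NAP066348-1 (0.89), LOC100047599 (0.83), Pnpla2 (the triglyceride lipase ATGL, 0.83), Cand2 (0.82) and Slc25a30 (0.80). The lowest were 5730507C01Rik (-0.88), Slc16a1 (the lactate carrier MCT1, -0.88), Adam19 (-0.86), Sox2ot (-0.85) and Ick (-0.85). In the eye the highest were Zfp229 (0.91), Lmnb2 (0.91), Zfp119 (0.89), Ctso (0.89) and Fam82a2 (0.89), and the lowest Phc2 (-0.91), Xpo5 (-0.90), Cdipt (-0.90), Dhx34 (-0.89) and Zbtb7c (-0.89). These r describe 16 and 14 mice and are the ends of 27149 and 27883 probes.

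Of 21 further glucocorticoid response genes 19 were measured, and 0 passed in either genotype comparison or followed Fkbp5. At an unadjusted p under 0.05 there was 1 of 19 in each genotype comparison (2.82% and 1.8% of all probes in hypothalamus and eye), and with Fkbp5 as a term 6 of 19 in the hypothalamus and 2 of 19 in the eye (12.2% and 14.9% of all probes). Their median genotype difference was 0.06 in the hypothalamus and 0.04 in the eye, beside -0.01 and 0.00 over all probes. In the hypothalamus the largest r with Fkbp5 were those of Dusp1 (a phosphatase of MAP kinases, -0.71), Sult1a1 (a sulfotransferase, 0.70) and Plin4 (a lipid droplet protein, 0.66), and in the eye those of Fam107a (0.71), Sult1a1 (0.66) and Arl4d (-0.55). Between WT tissues 10 of the 19 were higher and 6 lower in the eye, where 42.1% and 33.6% of all probes were, with a median difference of 0.34 beside 0.16 over all probes.

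Of 11 receptor chaperones and cofactors 0 passed in either genotype comparison or followed Fkbp5 (limma; at an unadjusted p under 0.05, 0 for genotype and 2 with Fkbp5 in each tissue). Over all probes the shares at that p were 2.82% in the hypothalamus and 1.8% in the eye for genotype. With Fkbp5 as a term they were 12.2% and 14.9%. The largest r with Fkbp5 reported here were those of Ncoa1 (0.66) and Ptges3 (-0.60) in the hypothalamus. In the eye they were those of Fkbp4 (-0.72), the co-chaperone that competes with Fkbp5 for the receptor complex, and Stip1 (-0.71). Of 6 genes of steroid handling and 7 measured of 8 genes of the hypothalamic-pituitary-adrenal axis 0 passed (limma; at an unadjusted p under 0.05, 1 steroid gene for genotype in the hypothalamus and 0 in the eye, and 0 axis genes in either). With Fkbp5 as a term 2 steroid genes were at that p in the hypothalamus and 0 in the eye, and 1 axis gene in each tissue. For the former the largest r were those of Abcb1a (-0.53), Scnn1a (0.51) and Serpina6 (-0.46) in the hypothalamus and Abcb1a (0.41), Hsd11b2 (-0.40) and Srd5a1 (0.23) in the eye, of which Serpina6 and Hsd11b2 were dim. For the latter they were Oxt (0.55), Pomc (0.46) and Crhr1 (-0.37), and in the eye Oxt (-0.64), Crhr1 (-0.44) and Avpr1a (0.43). Of the 8 immediate early genes 0 passed (limma; 0 at an unadjusted p under 0.05 for genotype, and 1 with Fkbp5 in each tissue), and their largest r were those of Fos (-0.59), Egr1 (-0.49) and Arc (-0.42) in the hypothalamus and Npas4 (-0.62), Junb (0.43) and Fos (0.42) in the eye.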

How the data were processed

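Arrays were 30, from 8 WT and 8 Per3-/- hypothalami and 7 eyes of each genotype. The authors extracted spot intensities with Agilent Feature Extraction, and the deposited processed intensities are background-subtracted on a linear scale. The authors also deposited a table of log2 values, scaled to the 75th percentile and centred on each probe's median per tissue (column medians -0.07 to 0.08), used as an alternative only. Here log2 intensities, averaged over spots of a probe, minus the array's 75th percentile over 41174 probes were used. Gene names are those of the hypothalamus files, and eye probes were matched by name. Positions are on mm9.

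Fits used limma 3.58.1 in R 4.3.3 with Benjamini-Hochberg adjustment. Tissues were fitted jointly, with arrays of 1 mouse as a random block (consensus 0.059). Correlations of genotype-centred levels used 100000 two-sided permutations of mice within genotype (Python 3.11.15, numpy 2.4.6). With Zbtb16 not analysed, pairs were 28 and not the 36 planned. Per gene the probe of highest mean level was primary. Beside the members, the text names the 5 genes of highest and of lowest r with Fkbp5 per tissue and, of each list with no call, the 3 with the largest absolute r, except that some items are not reported here. Members and lists were chosen with earlier results of these data known. Scripts were tested on simulated data. Pck1, Irs2, Crh, Kcnj13, Pou1f1 and Serpina1a were not analysed here. The number of arrays limits the precision.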

Additional observations from a re-analysis of the deposited data

Results flagged for a closer look

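In 7 of 32 groups of mice (8 genes, 2 tissues, 2 genotypes) 1 mouse lay far from the others by the ratio of its gap to the range of the group, where chance alone gives about 1 in 20 for separate groups. The 32 groups share mice and hold genes that vary together, so that 7 of 32 cannot be set against that rate. Per3-/- mouse 7 accounts for 4 of the 7. In its hypothalamus Cdkn1a was 0.32 (others -1.22 to -0.92), Hsd11b1 1.18 (others 1.70 to 2.13) and Sgk1 2.36 (others 3.77 to 4.46), and in its eye Sgk1 was 4.91 (others 5.23 to 5.41). The remaining 3 were in the hypothalamus, where Cdkn1a was -0.62 in WT mouse 2 (others -1.44 to -1.07), Pdk4 was -0.51 in WT mouse 6 (others -0.81 to -0.69) and Pdk4 was -0.31 in Per3-/- mouse 8 (others -0.86 to -0.64).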

How the results depend on the processing

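Of 192 counts recomputed under alternatives 150 stayed within 1.5 times the reported one. Probes called for genotype went from 17 to 10 with normexp and 5 with the replicate block in the hypothalamus (12 to 16 without 1 mouse), and from 8 to 4 and 1 in the eye (6 to 8). The difference of that effect between tissues went from 2 to 0 with normexp and 1 with quantile normalization (2 to 3 without 1 mouse). WT and Per3-/- mice of the same number were not taken as pairs, since not every pair's deviations from the group means correlated above 0.1, the limit set. Over the 8 hypothalamic pairs the correlations were -0.20 to 0.40, and 3 of 16 samples correlated best with their own number. Of the 6 eye pairs 5 were at 0.32 to 0.68 and pair 6 at 0.0016, and 9 of 12 samples correlated best with their own number, a hint of shared variation in the eye, where the block took the calls from 8 to 1. With the block, as in every alternative run, no primary probe of a member was called for genotype. Probes that followed Fkbp5 in the hypothalamus went from 1 to 8089 with normexp, where the cause was not tested, and to 0 with quantile normalization, with the filter on dim probes and with slide as a block (0 to 8 without 1 mouse). Called pairs in the hypothalamus went from 0 to 1 with slide means removed, without centring on genotype and with the mean over all probes (0 to 1 without 1 mouse), and in the eye from 1 to 2 with normexp and 0 with slide means removed (0 to 2). The called hypothalamic pair was not always the same. Tsc22d3 with Hsd11b1 passed with the mean over all probes, and Sgk1 with Hsd11b1 in another setting (adjusted permutation p = 0.047). Nr3c2 with Sgk1 in the eye reversed to 0.83 with the mean over all probes, which takes in dim probes. Fkbp5 between tissues ranged from 0.88 to 0.96 over the other settings, with adjusted p from 0.075 to 0.55. Of 1024 single values 63 changed sign, and the reversal above was the only one that touched a relation at an unadjusted p under 0.05. Normexp moved the median genotype difference of all eye probes to 0.17. Slide as a block was not run for the tissue difference, since a slide holds 1 tissue, and the filter on dim probes was not run for pairs, since every primary probe was well above background.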
